A study of Mus musculus with 51 samples.

Results

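Of the 51 libraries of the study, 8 came from serotonergic (5HT) neurons of mice aged 8 months, and these 8 are described here. They were picked by their labels alone: 4 libraries were labelled PRC2 mutant (animals S442, S443, S446 and S447) and 4 were labelled wt (animals S381, S382, S383 and S385). The neurons had been isolated from the adult midbrain by fluorescence-activated cell sorting, and their RNA was read with Smart-seq2, a full-length RNA-seq method for small numbers of cells. Both groups belonged to the SertCreEed line, in which Cre recombinase is driven by the serotonin transporter gene and acts on Eed. The labels do not say which alleles the wt animals carried, so whether they also carried Cre is not given in the sources used here. The wt group held 3 females and 1 male, and the mutant group 2 females and 2 males. For comparison there were 8 libraries of 5HT neurons at 4 months from the same line, 4 wt and 4 mutant, and 16 libraries of midbrain dopaminergic (mDA) neurons at 8 months, 8 wt and 8 mutant, from a DatCre line. The question was which genes differ when a serotonergic neuron has lived for months without a working Polycomb repressive complex 2.

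Polycomb repressive complex 2 (PRC2) places the repressive mark H3K27me3 on histones, and its subunit Eed binds that mark and is needed for the activity of the complex. In a differentiated neuron the mark covers many genes of embryonic patterning, such as the Hox clusters and the regulators of other cell lineages. A serotonergic neuron is defined by the enzymes that make serotonin, the transporters that package and recapture it, and the autoreceptors that sense its release. The factor Fev (Pet1), with Lmx1b, Gata2 and Gata3, maintains that set of genes.

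The 8 libraries held between 4894911 and 6369421 counts and reads from 16624 to 19836 genes, so that 3 counts, taken as the floor of detection, stood for 0.471 to 0.613 CPM. CPM, the count of a gene scaled to the size of its library, here after TMM scaling, is the unit of every level, and it is not corrected for gene length, so levels are compared between samples and not between genes. Separate animals are named for each library, and the labels pair no mutant with a wt animal. Within each genotype, chi-square per degree of freedom between 2 libraries was 13.1 or more, so no library was counted as a copy of another. The wt libraries were serotonergic by their markers, with Tph2 at 2119 to 3367 CPM, while the dopaminergic marker Th stood at 13.9 to 35.7 CPM and the noradrenergic marker Dbh at 0.528 to 4.79 CPM. Oligodendrocyte transcripts were present in all 8 libraries, with 15 markers summing to 1151 to 2167 CPM. Of the 4-month libraries that share the fit, 2 stood apart: the median correlation with the other 15 libraries was 0.759 for the wt animal S369 and 0.742 for the mutant animal S427, against 0.839 to 0.904 for the remaining 14. Eed itself was counted at 11.4 to 15.8 CPM in wt and at 13.3 to 25.6 CPM in mutants, groups that overlap, with a log2 fold change of 0.38 ± 0.38 (SE; edgeR adjusted p = 1). A count over the whole gene (chromosome 7, 89954654 to 89980976, GRCm38) does not isolate a deleted part, so it does not check the genotype.

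Across the 15633 genes tested, 39 rose in the mutants (0.249%) and 23 fell (0.147%) by edgeR's quasi-likelihood test at a Benjamini-Hochberg adjusted p under 0.05, and 766 genes had an unadjusted p under 0.05. The genes that fell were led by the makers and carriers of serotonin, at high levels in wt. The genes that rose were led by Hox genes, other developmental regulators and their neighbouring long noncoding RNAs, most of them near 0 in wt: 25 of the 39 had a wt mean under 1 CPM. For all 39 higher genes and for 22 of the 23 lower genes the 4 mutant values lay entirely on one side of the 4 wt values. The exception was Rasgrp1, a Ras activator, where the lowest wt animal (42.4 CPM) lay below the highest mutant (53.7 CPM), and its call was lost without S382, S383, S385, S443, S446 or S447. The genes were called from these same values, so the lack of overlap is no separate support for the calls. When the 8 libraries were fitted alone, 140 of 13943 genes were higher (1.004%) and 59 lower (0.423%), and all 39 and all 23 genes were among them. Leaving out only S369 and S427 gave 84 higher and 52 lower. Leaving out 1 of the 8 animals gave 17 to 31 higher and 10 to 19 lower genes, with 17 higher genes without wt animal S383, 18 without S385, 22 without S382 and 20 without mutant S447, and with 15 lower genes without S383, 12 without S385, 14 without S446 and 10 without S447. All 62 genes kept their direction in each of these fits, and 15 of the higher and 9 of the lower genes were called in all 8 of them.

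**Figure D1:**
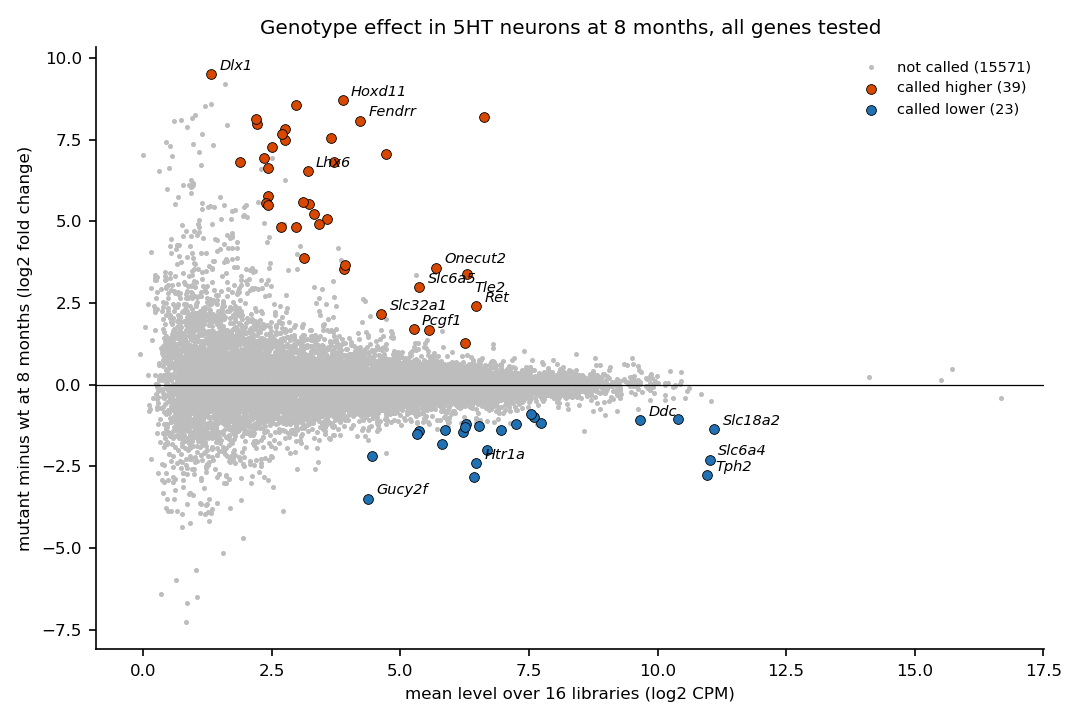
Mean level over the 16 5HT libraries (x axis, log2 CPM) against the log2 fold change of mutant over wt at 8 months (y axis) for each gene tested. Orange points are the 39 genes called higher, most of them at low mean levels with large fold changes, and blue points are the 23 called lower, among which Tph2, Slc6a4, Slc18a2 and Ddc lie at the far right.

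Genes of serotonin synthesis and handling were lower in mutants at 8 months. Of 17 such genes tested, 7 fell, 0 rose and 16 had a negative estimate, and their median log2 fold change was -1.18 against 0.01 for all genes tested. At 4 months the median of the same 17 genes was -0.02. Fewer serotonergic cells in a sorted sample and less RNA per serotonergic cell cannot be told apart in these bulk libraries.

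The start regions of 4 of these genes are shown because they are the core of the group that fell together. They are the 250 bases before the RefSeq start on GRCm38.p6, written 5′ to 3′ on the strand of the gene, with each CG dinucleotide, the site of DNA methylation and a frequent feature of Polycomb targets, in capitals. They are Tph2 on the minus strand at chr10:115185023-115185272, Slc6a4 on the plus strand at chr11:76998347-76998596, Slc18a2 on the plus strand at chr19:59260628-59260877 and Htr1a on the plus strand at chr13:105443443-105443692.
Tph2: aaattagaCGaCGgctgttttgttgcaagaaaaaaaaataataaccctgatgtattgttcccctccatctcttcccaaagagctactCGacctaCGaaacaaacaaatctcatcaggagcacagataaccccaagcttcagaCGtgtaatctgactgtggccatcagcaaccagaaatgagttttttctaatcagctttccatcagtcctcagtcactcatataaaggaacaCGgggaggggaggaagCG
Slc6a4: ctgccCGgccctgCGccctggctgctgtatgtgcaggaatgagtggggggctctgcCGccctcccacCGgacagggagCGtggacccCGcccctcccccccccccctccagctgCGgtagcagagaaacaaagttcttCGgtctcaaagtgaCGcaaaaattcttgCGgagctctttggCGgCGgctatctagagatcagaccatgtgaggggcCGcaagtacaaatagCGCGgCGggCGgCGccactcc
Slc18a2: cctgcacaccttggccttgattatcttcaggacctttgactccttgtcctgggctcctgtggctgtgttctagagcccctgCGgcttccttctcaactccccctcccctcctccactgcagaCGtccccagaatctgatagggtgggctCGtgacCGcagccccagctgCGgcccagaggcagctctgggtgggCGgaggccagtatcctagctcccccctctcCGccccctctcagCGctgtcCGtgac
Htr1a: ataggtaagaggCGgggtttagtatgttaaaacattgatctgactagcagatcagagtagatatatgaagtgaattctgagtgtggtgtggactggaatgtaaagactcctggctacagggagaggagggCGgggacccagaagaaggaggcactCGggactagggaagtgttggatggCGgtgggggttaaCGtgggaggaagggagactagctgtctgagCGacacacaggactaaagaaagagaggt
The CG dinucleotide occurred 7 times before Tph2, 18 times before Slc6a4, 9 times before Slc18a2 and 6 times before Htr1a, against a median of 15 over the 12127 tested genes with an entry. GGAA, the core of the sites bound by ETS factors such as Fev, was found on either strand 5 times before Tph2, 3 times before Htr1a, and 1 time each before Slc6a4 and Slc18a2. That motif occurs in 92.9% of all the promoters of this length, so its presence sets none of these genes apart.

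Tph2, the rate-limiting enzyme of serotonin synthesis in the brain, was counted at 2693, 2757, 3367 and 2119 CPM in the wt animals S381, S382, S383 and S385, and at 329, 557, 394 and 330 CPM in the mutants S442, S443, S446 and S447. Every mutant lay far below the lowest wt animal. The mean fell from 2734 ± 510 to 403 ± 107.3 CPM (SD, n = 4 each), a log2 fold change of -2.76 ± 0.25 (SE; edgeR adjusted p = 9.79e-07).

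Slc6a4, the transporter that takes serotonin back into the neuron and the gene that names the Cre line, stood at 2644, 2618, 2816 and 2634 CPM in wt and at 517, 578, 595 and 509 CPM in mutants. Both groups were tight and did not overlap. The log2 fold change was -2.29 ± 0.17 (SE; edgeR adjusted p = 4.72e-08), the smallest adjusted p among the genes that fell. Slc18a2, the vesicular transporter that loads monoamines for release, was less reduced, from 3091, 2774, 2945 and 3258 CPM to 1080, 1145, 1288 and 1188 CPM. Its groups did not overlap either, and its log2 fold change was -1.37 ± 0.22 (SE; edgeR adjusted p = 0.00294). This call was lost when only the female animals were fitted (edgeR adjusted p = 0.114), a fit with 3 wt and 2 mutant animals at 8 months.

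Ddc, which converts the product of Tph2 into serotonin, was at 1005, 925, 1112 and 756 CPM in wt and at 364, 540, 459 and 410 CPM in mutants. All 4 mutants were below all 4 wt animals, with a log2 fold change of -1.08 ± 0.19 (SE; edgeR adjusted p = 0.00533), and the adjusted p was 0.0552 without mutant S447. Gchfr, which restrains the enzyme Gch1 that starts the synthesis of the Tph2 cofactor tetrahydrobiopterin, fell from 158, 110, 152 and 90.2 CPM to 26.1, 48.2, 31.7 and 25.4 CPM. The groups did not overlap, and the log2 fold change was -1.997 ± 0.33 (SE; edgeR adjusted p = 0.00397). Gch1 itself was at 97.9 to 136 CPM in wt and at 37.4 to 66.3 CPM in mutants without passing the test in the fit of 16 libraries (edgeR adjusted p = 0.063). It was called in the 8 libraries alone (edgeR adjusted p = 0.022), as were Slc22a3, a low-affinity monoamine transporter (0.0013), and Maob, a monoamine-degrading enzyme (0.0322). Slc22a3 was at 149 to 212.7 CPM in wt and 69.1 to 88.3 CPM in mutants, and Maob at 175.5 to 306 and 81.4 to 183 CPM, with mutant S443 inside the wt range.

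The serotonin autoreceptor Htr1a was counted at 146.9, 148, 124.2 and 146 CPM in wt and at 17.3, 38.8, 27.7 and 23.3 CPM in mutants. All 4 mutants lay far below the lowest wt animal. Its log2 fold change was -2.40 ± 0.30 (SE; edgeR adjusted p = 0.000184). Htr5b, another serotonin receptor, fell from 42.2, 23.4, 47.1 and 29.7 CPM to 5.70, 9.75, 11.5 and 4.01 CPM. The groups did not overlap, with a log2 fold change of -2.19 ± 0.44 (SE; edgeR adjusted p = 0.0198), and the call was lost without S381, S383, S385, S442 or S447 (adjusted p up to 0.279 over all settings). Htr1d, an autoreceptor on terminals, was at 16.9 to 28.3 CPM in wt and 6.61 to 11.2 CPM in mutants (edgeR adjusted p = 0.222), and Htr1b, likewise a terminal autoreceptor, at 5.54 to 8.30 and 1.57 to 5.98 CPM (edgeR adjusted p = 1). The remaining members lay closer together. Maoa was at 62.6 to 111 CPM in wt and 30.5 to 73.4 CPM in mutants, and Spr, Pts, Qdpr and Pcbd1, which make or recycle tetrahydrobiopterin, overlapped between the groups with log2 fold changes between -0.35 and 0.28.

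**Figure D2:**
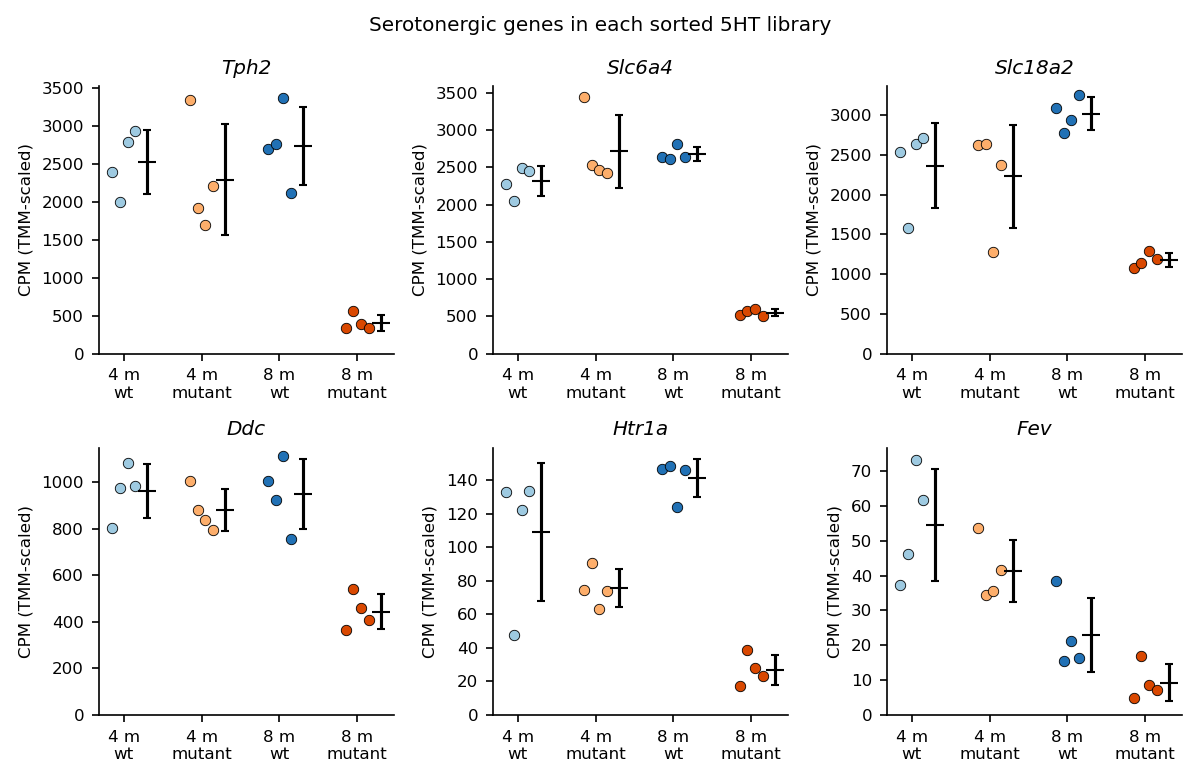
Level of 6 serotonergic genes (y axis, CPM) in each 5HT library, by age and genotype (x axis; each point is 1 animal, and the bar beside it gives the mean and SD of 4). For Tph2, Slc6a4, Slc18a2, Ddc and Htr1a the 4 mutants at 8 months lie below every wt animal of that age, and at 4 months the genotypes overlap for all 6 genes. Fev overlaps between genotypes at both ages.

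The transcription factors that maintain serotonergic identity did not pass the test: 0 of 8 tested were called, with 7 negative estimates and a median log2 fold change of -0.62. With 0.147% of all genes tested called lower and 0.249% higher, 0 calls among 8 genes lie near the overall share. The count therefore does not show that these factors were unchanged. Fev was at 38.5, 15.5, 21.2 and 16.4 CPM in wt and at 4.84, 16.9, 8.47 and 7.09 CPM in mutants. Mutant S443 lay within the wt range, and the log2 fold change was -1.24 ± 0.41 (SE; edgeR adjusted p = 0.384). Gata2 did not overlap between the groups, at 58.6 to 87.6 CPM in wt and 27.4 to 48.4 CPM in mutants, with a log2 fold change of -0.87 ± 0.25 (SE; edgeR adjusted p = 0.219). Gata3 stood at 132 to 157 CPM in wt and at 99.7 to 155 CPM in mutants, and Lmx1b at 0.624 to 2.89 and 0.308 to 2.09 CPM, close to the floor. En1, a factor shared by serotonergic and dopaminergic neurons, was at 19.2 to 24.7 CPM in wt and 17.6 to 21.3 CPM in mutants.

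Among 14 markers of raphe subtypes, 1 fell and 0 rose, with 10 negative and 4 positive estimates and a median log2 fold change of -0.54. The one that fell was Hcrtr1, a receptor for orexin, at 236, 286, 274 and 302 CPM in wt and 152, 128, 128 and 110 CPM in mutants. Every mutant lay below every wt animal, and the log2 fold change was -1.17 ± 0.19 (SE; edgeR adjusted p = 0.00294; 0.163 in females alone). Crhr2 and Cbln2 did not overlap between the groups either, but did not pass the test. Crhr2 was at 40.2 to 66.3 CPM in wt and 13.1 to 35.7 CPM in mutants (log2 fold change -1.13, edgeR adjusted p = 0.26). Cbln2 was at 16.4 to 29.4 and 6.63 to 14.3 CPM (log2 fold change -1.22, edgeR adjusted p = 0.638). Slc17a8, the vesicular glutamate transporter of a subset of raphe neurons, was at 46.95 to 62.1 CPM in wt and 34.9 to 47.2 CPM in mutants, with a log2 fold change of -0.35 (edgeR adjusted p = 1).

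A wider view came from 55 genes that were over 4-fold higher in wt 5HT than in wt mDA neurons at 4 months. These animals are not in the 8-month groups, but the 5HT animals among them share the fit of 16 libraries. Of these 55 genes, 8 fell, 0 rose and 46 had negative estimates, and the median log2 fold change was -0.56. The 8 were Tph2, Slc6a4, Htr1a, Gchfr, Hcrtr1, the mucin gene Muc6, the proton-sensing receptor Gpr4 and the chromodomain gene Cdyl2. Genes of the general synaptic and metabolic apparatus did not pass the test: 0 of 46 presynaptic genes and 0 of 78 nuclear genes of oxidative phosphorylation were called, with medians of 0.00 and -0.10. Over all genes tested 0.249% were called higher and 0.147% lower, so 0 calls lie near the overall share. In the 8 libraries alone the presynaptic gene Doc2a was called lower.

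The other genes that fell lay at a range of levels and had diverse roles. Gucy2f, a guanylate cyclase best known from photoreceptors, was at 37.0, 12.8, 20.6 and 28.5 CPM in wt and at 0.518, 3.66, 1.33 and 3.70 CPM in mutants. All mutants lay below all wt animals, and its log2 fold change of -3.48 ± 0.57 (SE; edgeR adjusted p = 0.00354) was the largest fall among the 23. The call was lost with all 51 libraries in the fit (edgeR adjusted p = 0.172) and in females alone (0.175). Plch1, a phospholipase C, went from 59.9, 62.2, 67.4 and 69.3 CPM to 24.4, 39.3, 13.6 and 10.6 CPM, with no overlap and a log2 fold change of -1.82 ± 0.30 (SE; edgeR adjusted p = 0.00358; 0.0976 with all 51 libraries in the fit). Muc6, Gpr4, Lcorl, Smc2, Cdyl2 and Map2k5 fell by between 1.38 and 2.83 on the log2 scale, all with groups that did not overlap. The call for Lcorl was lost without S447, that for Muc6 without S383, S385, S443, S446 or S447, that for Smc2 without S381, S385, S442, S443 or S447 and that for Map2k5 without S382, S383, S443, S446 or S447. That for Gpr4 was lost without any 1 animal but S442, and that for Cdyl2 without any 1 of the 8. Further genes that fell lay outside the naming rule and were picked after their values were seen: Cpne7, a calcium-dependent membrane-binding protein, at 1521 to 1937 CPM in wt and 720 to 925 CPM in mutants (log2 fold change -1.04, edgeR adjusted p = 0.00321), and Rimbp2, an active-zone protein, at 163 to 227 CPM and 71.9 to 121 CPM (log2 fold change -1.21, edgeR adjusted p = 0.00885).

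The Hox genes, which set position along the body axis in the embryo and are silent in midbrain, made up 7 of the 39 genes that rose. Of the 39 Hox genes counted, 24 passed the filter on low counts, which a gene could pass through the mutant group alone. The signs, the lack of overlap and the median below are therefore partly fixed by that filter. Of these 24, 7 rose, 0 fell and all 24 had positive estimates, and the groups did not overlap for 21. Their median log2 fold change was 6.21 as fitted and 5.51 with the genes that had no wt counts set at their bound. In the 8 libraries alone 18 of 20 were called. Summed over the 9 genes of the Hoxd cluster (chromosome 2, 74668225 to 74765142, GRCm38), the level was 1.46, 2.705, 1.54 and 1.93 CPM in wt and 229, 212, 321 and 282.5 CPM in mutants. The Hoxc cluster (chromosome 15, 9 genes) went from 0.541 to 4.46 CPM in wt to 62.3 to 126 CPM in mutants, and the Hoxa cluster (chromosome 6, 11 genes) from 0.879 to 3.95 CPM to 76.6 to 107.1 CPM. The Hoxb cluster (chromosome 11, 10 genes) was at 0.361 to 4.46 CPM in wt and 14.6 to 26.0 CPM in mutants. In all 4 clusters the sum of every mutant exceeded that of every wt animal.

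Hoxd10, a gene of the Hoxd cluster known from limb and lumbar spinal cord, was counted at 0.416, 1.80, 0.154 and 0.352 CPM in wt and at 85.9, 88.8, 113 and 98.0 CPM in mutants. The mutants were alike, and the wt animals lay near the floor. Its log2 fold change was 7.05 ± 0.999 (SE; edgeR adjusted p = 0.000732). Hoxd11 was at 0.208, 0.361, 0 and 0 CPM in wt and at 55.1, 30.5, 70.3 and 65.5 CPM in mutants. With only 3 wt counts in all, its ratio was 419 (95% exact counting interval 143 to 2036), and the edgeR adjusted p was 3.37e-05. Hoxd3 was at 0 to 0.879 CPM in wt and 32.1 to 71.9 CPM in mutants, Hoxd4 at 0.208 to 1.39 and 23.5 to 39.4 CPM, and Hoxc8 at 0 to 2.46 and 22.5 to 44.7 CPM, all 3 with no overlap and called. The call for Hoxc8 was lost without S381, S382, S383, S442, S446 or S447 (edgeR adjusted p up to 0.108 over all settings). Hoxc10, with 1 wt count, was at 22.8, 39.0, 31.6 and 9.09 CPM in mutants. Hoxd10 and Hoxd11 and likewise Hoxd3 and Hoxd4 have overlapping or adjoining transcripts, and the use of strand in counting is not given, so the split of reads within each pair is uncertain. Hoxa9 was at 0.361 to 2.71 CPM in wt and 15.3 to 31.7 CPM in mutants without passing the test (edgeR adjusted p = 0.334; 0.000577 in the 8 libraries alone), and Hoxb5 did not pass the filter, at 0.348 to 15.04 CPM in mutants.

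**Figure D3:**
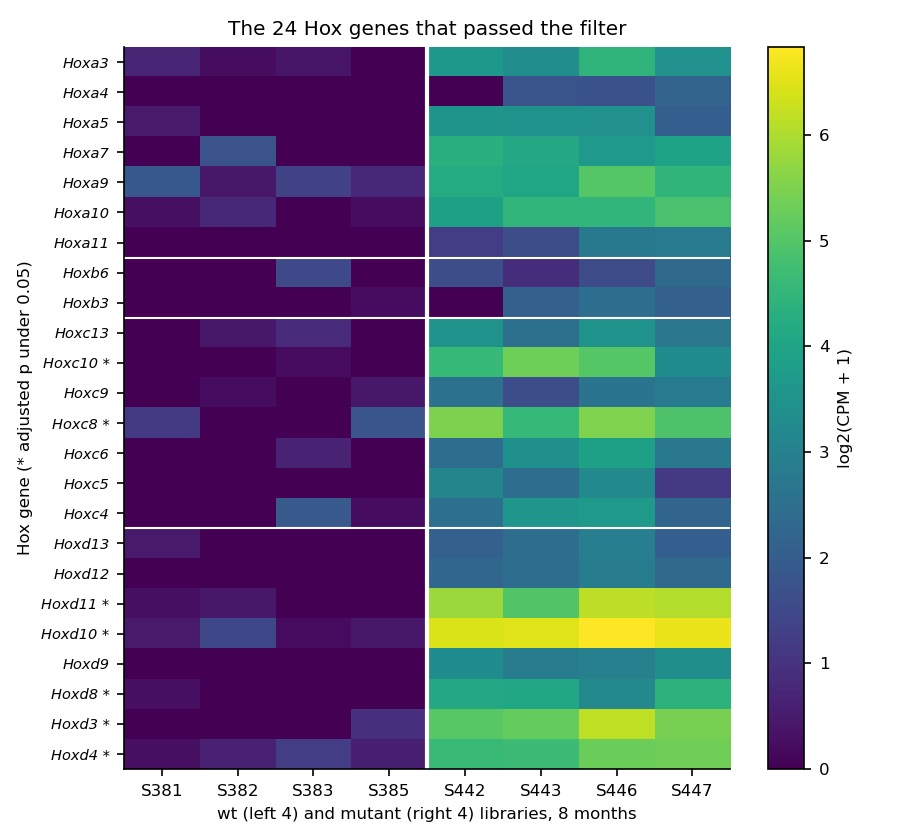
Level of the 24 Hox genes that passed the filter (rows, grouped by cluster) in the 8 libraries at 8 months (columns), as log2(CPM + 1). The 4 wt libraries on the left are dark in most rows, while the 4 mutant libraries on the right are brighter in nearly every row; Hoxa4 and Hoxb3 are at 0 in mutant S442. An asterisk marks the 7 genes with an edgeR adjusted p under 0.05.

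The start regions of Hoxd10 and of the long noncoding RNA gene Fendrr are shown as examples of genes that rose from near 0, again as the 250 bases before a RefSeq start on GRCm38.p6, with CG in capitals. They are Hoxd10 on the plus strand at chr2:74691641-74691890 and Fendrr on the minus strand at chr8:121083111-121083360. The Hoxd10 stretch lies inside the range given for the gene (74684273 to 74695106), not before the first base of that range. Which transcript start it precedes is not given.
Hoxd10: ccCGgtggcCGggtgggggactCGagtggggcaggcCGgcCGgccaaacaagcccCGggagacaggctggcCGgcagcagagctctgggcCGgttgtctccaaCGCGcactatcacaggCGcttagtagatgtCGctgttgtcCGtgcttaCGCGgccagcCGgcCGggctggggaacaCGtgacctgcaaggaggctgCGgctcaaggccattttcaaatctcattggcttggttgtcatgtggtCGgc
Fendrr: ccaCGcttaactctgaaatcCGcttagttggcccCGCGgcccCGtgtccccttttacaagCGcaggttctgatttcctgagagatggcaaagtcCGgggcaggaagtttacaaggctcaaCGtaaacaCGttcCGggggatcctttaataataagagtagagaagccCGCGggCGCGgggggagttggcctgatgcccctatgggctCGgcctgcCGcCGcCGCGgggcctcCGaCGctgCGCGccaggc
The CG dinucleotide occurred 20 times in the stretch shown for Hoxd10 and 23 times before Fendrr. These examples do not stand for the genes that rose: the count was 2 before Hoxd11, 3 before Hoxd4, 6 before Hoxd8 and 12 before Hoxd3. Among the genes that fell, Gchfr had 27. A comparison of CpG content over the genes that rose was void, because 23 of the 39 (59.0%) had an entry in the promoter table.

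Transcription factors of other lineages rose beside the Hox genes. Of 120 tested from a list of developmental regulators, 11 rose, 0 fell and 105 had positive estimates, with a median log2 fold change of 3.54. The list holds 221 genes, and 73 of the 120 tested had a wt mean under 1 CPM, so that many could pass the filter through the mutants alone and had to differ. The median and the count of positive estimates are partly fixed by that filter and support no direction. In the 8 libraries alone 46 of 88 were called. Onecut2, a factor of several embryonic neuron types, was at 6.03, 8.11, 3.39 and 15.7 CPM in wt and at 126, 67.2, 123.3 and 84.6 CPM in mutants. The groups did not overlap, and the log2 fold change was 3.58 ± 0.47 (SE; edgeR adjusted p = 0.000266). Tbx3, a T-box repressor of limb and hypothalamic development, was at 0, 0.361, 0.616 and 0.528 CPM in wt and at 44.8, 35.5, 43.4 and 57.9 CPM in mutants, with a log2 fold change of 6.80 ± 0.98 (SE; edgeR adjusted p = 0.000844). Every mutant lay far above the highest wt animal.

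Lhx6, a factor of forebrain GABA interneurons, was at 0.208, 0.361, 0 and 0.352 CPM in wt and at 32.7, 25.2, 33.1 and 12.5 CPM in mutants. The mutants lay clear of the wt animals, with a log2 fold change of 6.54 ± 1.12 (SE; edgeR adjusted p = 0.00533; 0.145 in females alone). Dlx1, another forebrain interneuron factor, had no wt count and was at 6.01 to 8.36 CPM in mutants, at least 54.7-fold higher against the floor of 3 counts over the wt group (edgeR adjusted p = 0.0236; lost without S381, S382, S383, S385, S442 or S443, up to 0.249 over all settings). Isl2, a factor of motor and sensory neurons, was at 0.104 ± 0.208 CPM in wt and 15.4 ± 6.18 CPM in mutants (SD, n = 4 each). Foxf1, Barx1, Pitx1 and Wt1, which act outside the brain or in other brain regions, had wt means of 0.052 to 0.133 CPM and mutant means of 11.7 to 22.6 CPM, each with 1 to 3 wt counts. Among these 4 and Isl2 the calls rested on few wt counts: that of Isl2 was lost without S383 or S385, that of Barx1 without S382, S383 or S385, that of Pitx1 without any 1 animal but S442, and that of Wt1 without any 1 of the 8. Isl1 also rose, to 18.5 CPM on average. Pax6, Pou4f1 and Shox2, chosen after their values were seen, had mutant means of 44.4, 41.8 and 47.7 CPM and passed the test in the 8 libraries alone but not in the fit of 16 (edgeR adjusted p = 0.000148, 0.000392 and 0.0305, against 0.0686, 0.0713 and 0.0949).

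Of 21 long noncoding RNAs from developmental loci 13 passed the filter, 6 of them with a wt mean under 1 CPM. Of these 13, 4 rose and 0 fell, and the median log2 fold change of 3.26 is in part fixed by the filter. Vax2os, transcribed opposite the eye-field gene Vax2, had the smallest adjusted p of all genes that rose. It was at 1.04, 2.16, 1.23 and 0.879 CPM in wt and at 388, 281, 363 and 527 CPM in mutants. All 4 mutants lay far above all 4 wt animals, and the log2 fold change was 8.19 ± 0.49 (SE; edgeR adjusted p = 1.11e-09). Fendrr, the neighbour of Foxf1, was at 0, 0.361, 0.154 and 0.352 CPM in wt and at 77.1, 50.3, 85.4 and 60.6 CPM in mutants, with a log2 fold change of 8.08 ± 0.84 (SE; edgeR adjusted p = 1.12e-05). Hoxa11os and Six3os1 rose too, to 23.2 ± 12.04 and 36.3 ± 11.2 CPM (SD, n = 4), but the call for Hoxa11os was lost without S382, S383, S385, S446 or S447 and that for Six3os1 without S381, S383, S385, S442, S446 or S447. Since strand use is not given, reads of these RNAs cannot be told from those of the genes they overlap.

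Polycomb and corepressor genes changed in 2 cases. Among 11 PRC2 genes 0 were called and the median log2 fold change was 0.11, with Ezh1, the catalytic subunit of mature neurons, at 61.2 to 94.3 CPM in wt and 69.1 to 130 CPM in mutants. That count of 0 lies near the share over all genes tested (0.249% called higher and 0.147% lower). Of 21 PRC1 genes, 1 rose: Pcgf1, a subunit of a variant PRC1, at 18.3, 19.5, 29.7 and 24.8 CPM in wt and 76.9, 59.4, 93.7 and 71.8 CPM in mutants. No mutant value reached the wt range, and the log2 fold change was 1.71 ± 0.28 (SE; edgeR adjusted p = 0.00321; 0.0776 in females alone). Cbx8, another PRC1 gene, was called higher in the 8 libraries alone. Of 6 Groucho/TLE corepressors, 1 rose. Tle2 was at 9.57, 8.84, 26.2 and 34.3 CPM in wt and at 216, 195, 189 and 227 CPM in mutants. The mutants were uniform and far above the highest wt animal, with a log2 fold change of 3.40 ± 0.44 (SE; edgeR adjusted p = 0.000203).

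Among markers of other transmitters, those of GABA and glycine rose in part. Of 5 genes of GABA and glycine transmission, 2 rose and all 5 had positive estimates. Slc32a1, which loads GABA and glycine into vesicles, was at 28.1, 10.3, 14.9 and 8.97 CPM in wt and at 62.4, 72.8, 61.6 and 64.0 CPM in mutants. The groups did not overlap, and the log2 fold change was 2.15 ± 0.41 (SE; edgeR adjusted p = 0.0128). Slc6a5, the glycine transporter of glycinergic neurons, went from 52.2, 9.20, 15.1 and 3.87 CPM to 118, 95.2, 131 and 141 CPM. All mutants lay above S381, the highest wt animal, with a log2 fold change of 2.98 ± 0.58 (SE; edgeR adjusted p = 0.0149). Without wt animal S382, S383 or S385 or mutant S447, 0 of these 5 genes were called. Gad1, the main GABA-synthesizing enzyme, was at 75.1 to 107.4 CPM in wt and 175.4 to 291 CPM in mutants (edgeR adjusted p = 0.219; 0.00471 in the 8 libraries alone), and Gad2 at 79.6 to 110 and 121 to 152 CPM. Slc17a6, the vesicular glutamate transporter of most subcortical excitatory neurons, was at 7.56 to 72.8 CPM in wt and 91.2 to 131 CPM in mutants (edgeR adjusted p = 0.311). Th and Slc6a3, which define dopaminergic neurons, overlapped between the groups at 8.80 to 35.7 CPM and 5.74 to 32.3 CPM over all 8 animals.

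Other signalling genes rose in part. Ret, the receptor tyrosine kinase for ligands of the GDNF family, was at 44.3, 43.3, 56.3 and 43.4 CPM in wt and at 224, 201, 293 and 191.7 CPM in mutants. The groups were far apart, and the log2 fold change was 2.40 ± 0.44 (SE; edgeR adjusted p = 0.00885). Of 18 neuropeptide genes 1 rose: Adcyap1, which encodes PACAP, from 40.6, 36.1, 28.6 and 14.4 CPM to 58.1, 56.4, 80.9 and 136 CPM, with no overlap and a log2 fold change of 1.68 ± 0.32 (SE; edgeR adjusted p = 0.013), lost without S383, S385 or S447 (adjusted p up to 0.18 over all settings). Ccnd2, a cyclin of dividing precursors that lay outside the naming rule and was picked after its values were seen, was at 1.06 to 7.21 CPM in wt and 27.7 to 51.5 CPM in mutants (log2 fold change 3.55, edgeR adjusted p = 0.0295).

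Cell-cycle inhibitors and stress genes were mostly below the threshold. Of 6 cyclin-dependent kinase inhibitors tested 0 were called, with a median log2 fold change of 3.54. Cdkn2a, Cdkn2b and Cdkn2c had 2 wt counts each and could pass the filter through the mutants alone. The median is therefore partly fixed by the filter and supports no direction. Cdkn2b, a Polycomb target in many dividing cells, was at 0, 0, 0.308 and 0 CPM in wt and at 14.9, 14.6, 11.8 and 12.5 CPM in mutants. Its ratio over 2 wt counts was 151 (95% exact counting interval 41.4 to 1251), and the edgeR adjusted p was 0.138, and 0.000542 in the 8 libraries alone. Cdkn2a was at 0 to 0.361 CPM in wt and 4.31 to 8.12 CPM in mutants (edgeR adjusted p = 0.219; 0.0272 in the 8 libraries alone), and Cdkn1a at 3.79 to 11.9 and 16.4 to 25.9 CPM (edgeR adjusted p = 0.987). Of 24 genes of the p53 response and cell death 0 were called, and likewise 0 of 16 genes of the unfolded protein response. Of 15 immediate early genes 0 were called, with 14 positive estimates and a median log2 fold change of 1.17. Since 0.249% of all genes tested were called higher and 0.147% lower, 0 calls in these 4 lists lie near the overall share. In the 8 libraries alone Cdkn2c, Pmaip1 of the p53 list and the immediate early gene Fosl2 were called higher.

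Markers of other cell types did not pass the test in any of the lists of astrocytes, oligodendrocytes, their precursors, microglia, endothelial and mural cells, or ependymal and choroid cells. This lies near the share over all genes tested, of which 0.249% were called higher and 0.147% lower. The summed astrocyte level over 15 markers was 423 to 718 CPM in wt and 484 to 578 CPM in mutants, and that of 15 oligodendrocyte markers was 1151 to 1754 and 1211 to 2167 CPM. The 13 microglial markers were lower in mutants without overlap of their sums, at 135 to 208 CPM in wt and 89.0 to 119 CPM in mutants, and 12 of the 13 estimates were negative. The 9 ependymal and choroid markers summed to 7.93 to 14.98 CPM in wt and to 14.2 to 183 CPM in mutants, and the choroid marker Ttr alone made 162 CPM in mutant S442. The part of microglial or choroid RNA in the other results was not tested.

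**Figure D4:**
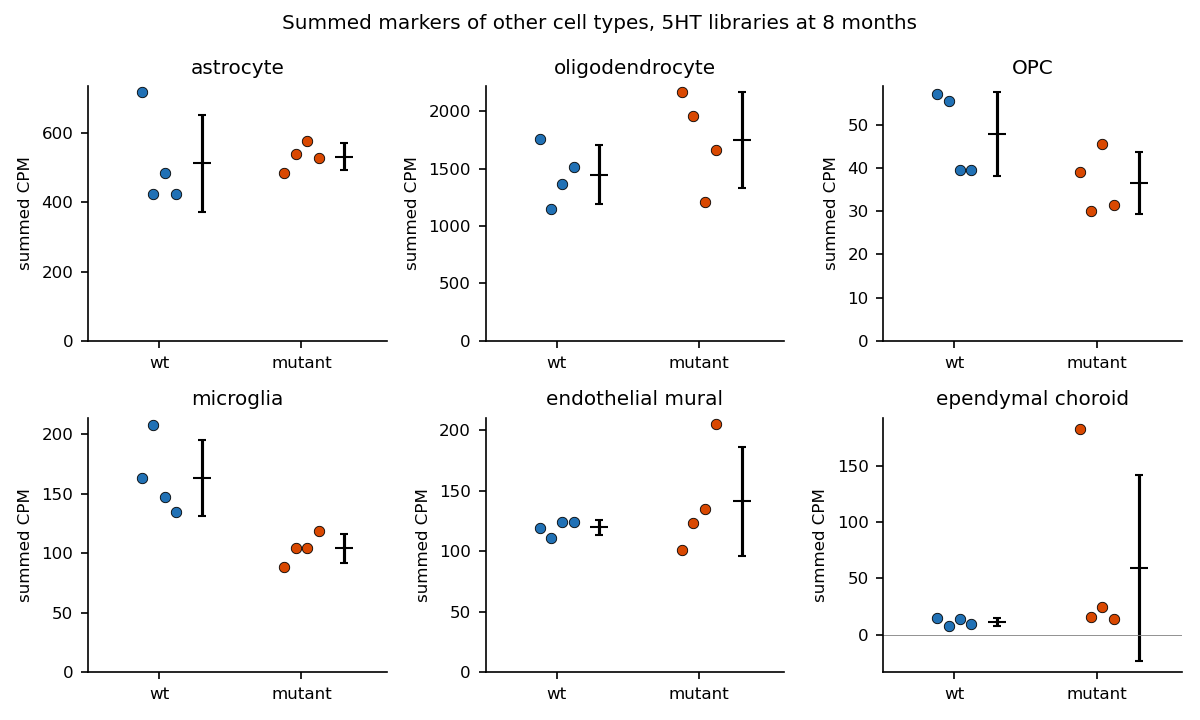
Summed level (y axis, CPM) of the markers of 6 other cell types in the wt and mutant libraries at 8 months (x axis; each point is 1 animal, with mean and SD of 4 beside it). The groups overlap for astrocytes, oligodendrocytes, their precursors (OPC) and endothelial and mural cells, the microglial sums are lower in all 4 mutants, and 1 mutant stands at 183 CPM for ependymal and choroid markers, whose SD bar therefore reaches below 0.

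The effect at 8 months was compared with that at 4 months in separate animals of the same line. At 4 months 2 of the 15633 genes were called (0.0128%) in either direction, and 1001 had an unadjusted p under 0.05. None of the 62 genes called at 8 months was called at 4 months. Of the 39 higher genes 32, and of the 23 lower genes 17, had an estimate of the same sign. The test of the difference between ages passed for 2 genes (0.0128% of genes, with 620 at an unadjusted p under 0.05), and both were serotonergic. Tph2 was at 2387, 1991, 2789 and 2924 CPM in wt and 3338, 1920, 1696 and 2204 CPM in mutants at 4 months, with overlap. Its log2 fold change was 2.62 lower at 8 than at 4 months (edgeR adjusted p = 0.000496). Slc6a4 was at 2279, 2055, 2489 and 2456 CPM in wt and 3447, 2532, 2460 and 2423 CPM in mutants at 4 months, and its log2 fold change was 2.51 lower at 8 months (edgeR adjusted p = 5.22e-06). Both calls held in each of the 21 other settings run for this comparison. For Slc18a2 the difference was -1.28 (edgeR adjusted p = 0.314), and for Htr1a -1.86 (0.238). No Hox gene passed this test. Hoxd11, for example, had a log2 fold change of 5.95 at 4 months (edgeR adjusted p = 0.212). For genes near 0 in wt such a value can stand on a low level. The mutant means of Vax2os, Fendrr, Hoxa11os and Six3os1 were 2.21, 3.67, 0.622 and 4.83 CPM at 4 months. At 8 months they were 390, 68.3, 23.2 and 36.3 CPM. The log2 fold change of Vax2os at 4 months was nevertheless 4.83 (edgeR adjusted p = 0.108).

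Against mDA neurons of the same age, most of the genes that rose were called there too, and few of the genes that fell were. In mDA neurons at 8 months 376 of 15425 genes were called higher (2.44%) and 290 lower (1.88%). Of the 39 genes higher in 5HT neurons, 33 were called higher in mDA neurons too, which is 84.6% of the 5HT list and 8.78% of the mDA list, and all 39 had positive estimates there. Of the 23 lower genes, 22 were tested in mDA neurons and 4 were called lower, 17.4% of the 5HT list and 1.38% of the mDA list. Several lower genes were so low in wt mDA neurons that a fall could hardly be called there. Median levels were 3.15 CPM for Tph2, 1.82 for Slc6a4, 2.71 for Htr1a and 3.08 for Htr5b, and Gchfr was not tested. Ddc and Hcrtr1, at medians of 717 and 66.0 CPM there, were not called either (edgeR adjusted p = 0.109 and 0.889). Slc18a2, which both cell types use, had a log2 fold change of -1.49 in mDA neurons (edgeR adjusted p = 8.64e-15), and Cpne7 one of -0.91. All 22 Hox genes tested in mDA neurons were called higher there.

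**Figure D5:**
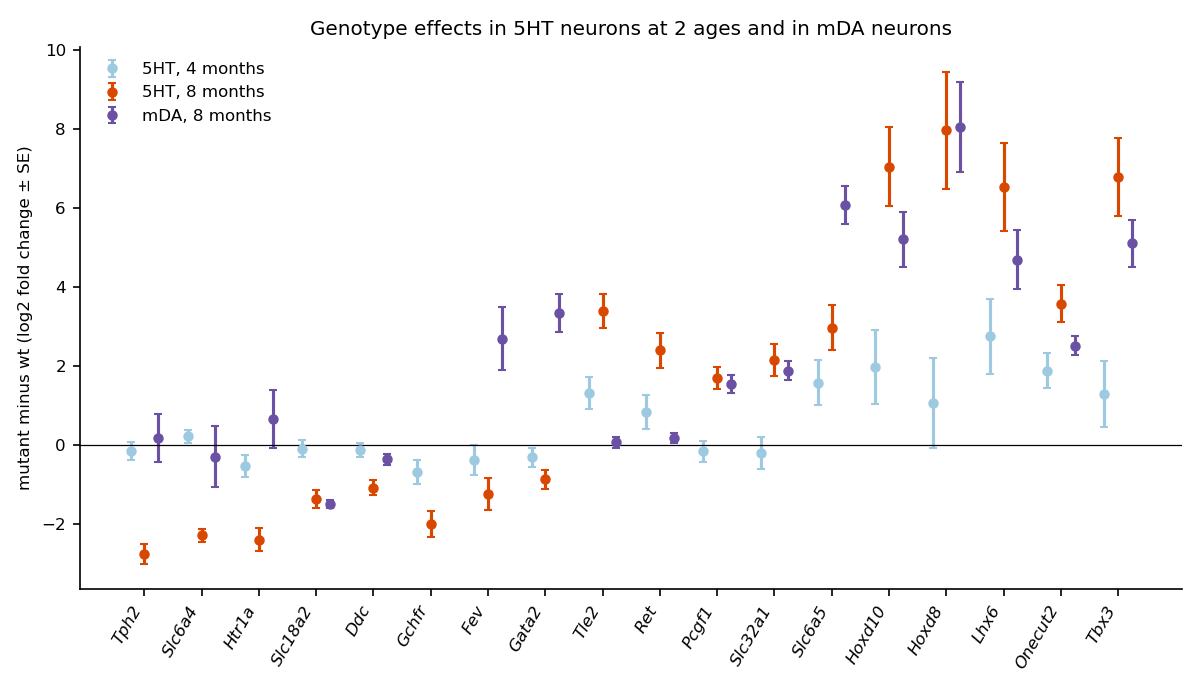
Log2 fold change of mutant over wt, with its SE (y axis), for 18 genes (x axis) in 5HT neurons at 4 months (light blue), 5HT neurons at 8 months (orange) and mDA neurons at 8 months (purple). Tph2, Slc6a4 and Htr1a are below 0 in 5HT neurons at 8 months and closer to 0 at 4 months, Tle2 and Ret are raised in 5HT but near 0 in mDA neurons, and Fev and Gata2 have opposite signs in the 2 cell types. A gene with no point for mDA was not tested there.

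The test of the difference between the effects in 5HT and mDA neurons passed for 23 genes that were higher (0.125%) and 10 that were lower (0.0544%) of 18386, with 1413 at an unadjusted p under 0.05. Tle2, at a median of 236.7 CPM in wt and 260 CPM in mutant mDA neurons, had a log2 fold change 3.32 ± 0.36 higher in 5HT neurons (SE; edgeR adjusted p = 1.9e-08). Ret, at a median of 1140 CPM in wt mDA neurons, had a difference of 2.17 ± 0.41 (SE; edgeR adjusted p = 0.00704). Nr4a2, a dopaminergic factor, was at 0 to 2.34 CPM in wt 5HT and 5.57 to 18.3 CPM in mutant 5HT neurons (edgeR adjusted p = 0.207 within 5HT), and its medians in mDA neurons were 204 CPM in wt and 143 CPM in mutants. Its difference of log2 fold changes was 4.03 ± 0.54 (SE; edgeR adjusted p = 5.53e-06). Mkx, a homeobox gene, had a difference of 2.87 (edgeR adjusted p = 0.00491) and En1 one of 1.45 (0.00992).

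In the other direction stood Gata2 and Fev, factors of the serotonergic programme. Gata2 had medians of 2.25 CPM in wt and 24.9 CPM in mutant mDA neurons, with 20.6 CPM in the lowest mutant above 4.29 CPM in the highest wt animal. The difference of its log2 fold changes was -4.24 ± 0.54 (SE; edgeR adjusted p = 1.34e-06). Fev rose from a median of 0.294 to 5.04 CPM in mDA neurons (edgeR adjusted p = 0.0404), with overlapping groups, and its difference was -4.09 ± 0.86 (SE; edgeR adjusted p = 0.019), lost without S381, S442, S446 or S447 (up to 0.0596). Stxbp2, a syntaxin-binding protein of exocytosis, Chgb, a granin of secretory granules, and Lcorl, a nuclear corepressor-like protein, had differences of -1.95, -1.64 and -1.97 (edgeR adjusted p = 1.82e-05, 0.0176 and 0.019). That of Chgb was lost without S442 and that of Lcorl without S381 or S447. Cell type, mouse line and the mix of sequencing sets differ together between the 5HT and mDA libraries and cannot be told apart.

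The neighbourhood of Eed held no called gene. Of 29 genes tested with a start within 5 Mb of that of Eed 0 were called in either direction, with a median log2 fold change of -0.13. With 0.249% of all genes tested called higher and 0.147% lower, 0 calls among 29 genes lie near the overall share.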

How the data were processed

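RNA of sorted neurons was sequenced with Smart-seq2, and the authors deposited raw read counts per gene for 24564 genes in 51 libraries. STAR 2.7.0a and the builds mm10 and GRCm38 are named per the submitters' processing notes, while no source used here names the counting tool or says whether strand was used. A row for the mCherry reporter was kept out of library sizes and tests.

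From the deposited counts, genotypes were compared with edgeR 4.0.16 in R 4.3.3 (quasi-likelihood test, TMM scaling, filterByExpr with a minimum count of 10, a term for sex, 16 5HT libraries, Benjamini-Hochberg adjusted p under 0.05). The difference between ages came from the same fit, the difference from mDA neurons from a fit of all 51 libraries with sex and the sequencing set of mDA libraries as terms, and mDA values from their own 35 libraries. On data simulated for the 8-month comparison in 15050 genes, 26% of 2-fold and 86% of 4-fold changes were recovered, and 5 of 117 calls were false. Recovery for genes near 0 in wt, as most of the higher genes were, was not tested separately. Counting intervals and floors (3 counts) cover counting error only. Alternatives were DESeq2 1.42.0, other scaling, filters and samples, and leaving out each animal. Of the 24564 genes, 23633 matched RefSeq (96.2%), which also gave the promoter sequences (GRCm38.p6).

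The gene lists, and the rule for the genes named, were chosen with earlier results of these data known. Named were Eed, the 15 largest changes each way among called genes whose average log2 CPM reached 1 (without unnamed gene models, Xist and Y-linked genes), for each list the called members of smallest p, 4 at most, 5 per side in each difference test, the Hox gene with the highest mutant level in each cluster, and a fixed set of transmitter and cell-cycle genes. Other members of the lists given with values were added after their values were seen.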

Additional observations from a re-analysis of the deposited data

Results flagged for a closer look

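The named genes gave 132 pairs of gene and group, but pairs with every value under 1 CPM were skipped, so fewer were examined. Chance alone flags about 1 in 20 of those examined. In a group of 4 animals, 1 stood far from the other 3 in 11 pairs. Among wt animals these were Hoxd10 in S382, at 1.80 CPM against 0.154 to 0.416 CPM, Htr1a in S383, at 124.2 CPM against 146 to 148 CPM, and Slc6a4 in S383, at 2816 CPM against 2618 to 2644 CPM. None of these 3 brought the genotypes into overlap. Smc2 stood at 68.5 CPM in S381 against 41.7 to 44.2 CPM, and Ret at 56.3 CPM in S383 against 43.3 to 44.3 CPM. Slc17a8 stood at 62.1 CPM in S385 against 46.95 to 48.9 CPM, and Th at 35.7 CPM in S382 against 13.9 to 17.2 CPM.

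Among mutants, Klk1b22, a kallikrein gene with near-identical copies whose reads may be split uncertainly, was at 46.8 CPM in S447 against 1.83 to 5.92 CPM in the other 3. Stxbp2 was at 200.2 CPM in S443 against 284 to 292 CPM, and Maob at 183 CPM in S443 against 81.4 to 91.1 CPM. Slc6a3 was at 25.9 CPM in S442 against 5.74 to 7.97 CPM.

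Genotype effects that differed between ages by the edgeR test were those of Tph2, by -2.62, and Slc6a4, by -2.51, on the log2 scale. Effects that differed between 5HT and mDA neurons at 8 months, as the log2 fold change in 5HT minus that in mDA neurons, were those of Tle2 (3.32), Nr4a2 (4.03), Mkx (2.87), Ret (2.17) and En1 (1.45). Those of Gata2 (-4.24), Fev (-4.09), Lcorl (-1.97), Stxbp2 (-1.95) and Chgb (-1.64) differed the other way.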

How the results depend on the processing

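The count of genes higher in mutants at 8 months, 39 as reported, was 110 with all 51 libraries in the fit, 124 with DESeq2, 140 with only the 8 libraries, 224 with DESeq2 on those 8, 84 without S369 and S427, 11 in females alone and 17 to 31 when 1 of the 8 animals was left out. The count of lower genes, 23 as reported, was 52 with DESeq2, 59 with the 8 libraries, 133 with DESeq2 on those 8, 52 without S369 and S427, 8 in females alone and 10 to 19 with 1 animal left out. DESeq2 on the 8 libraries and leaving out S369 and S427 were chosen after seeing the data. DESeq2 size factors, no filter and no sex term gave counts within 1.5 times of both. The effect was higher at 8 than at 4 months for 0 genes as reported, 1 without the filter, 15 with DESeq2, 1 without S369 and S427 and 0 in each of the 16 fits without 1 animal. It was lower for 2 genes, against 4 without the filter, 13 with DESeq2, 4 without S369 and S427 and 2 to 3 without 1 animal. The effect was higher in 5HT than in mDA neurons for 23 genes, against 68 with DESeq2 and 7 to 26 without 1 animal, and lower for 10, against 33 and 3 to 9. The cause of these shifts was not tested.

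Over the named genes, 1066 of 1267 recomputed values kept their direction and their side of the threshold, 153 lost a call and 42 gained one. The 6 that reversed were all of genes without a call: En1, -0.07 as reported, at 0.016 without S446 (-0.126 to 0.016 over the fits without 1 animal), Th, -0.15 as reported, at 0.25 without S382 and 0.14 without S446 (-0.52 to 0.25 over those fits), and Slc6a3, -0.32 as reported, at 0.004985 without S369 and S427, 0.14 without S446 and 0.17 without S447 (-1.28 to 0.17 over the fits without 1 animal, and -1.75 in females alone). Tph2, Slc6a4, Hoxd11, Vax2os, Fendrr, Hoxd3, Hoxd10, Onecut2, Tbx3, Tle2 and Ret were called in all 17 alternatives run. With all 51 libraries in the fit Htr1a, Gchfr, Gucy2f, Muc6, Htr5b, Plch1, Gpr4 and Rasgrp1 lost the call (edgeR adjusted p from 0.0681 for Muc6 to 0.37 for Gpr4). In females alone it was lost for Slc18a2, Hcrtr1, Htr5b, Gucy2f, Muc6, Gpr4, Smc2, Cdyl2, Map2k5 and Rasgrp1 among the lower genes. Among the higher genes it was lost there for Dlx1, Hoxc8, Hoxc10, Hoxd4, Hoxd8, Barx1, Foxf1, Isl2, Pitx1, Wt1, Lhx6, Six3os1, Klk1b22, Pcgf1, Slc32a1, Slc6a5 and Adcyap1 (edgeR adjusted p from 0.0569 for Hoxc10 to 0.529 for Smc2 over both directions). No paired analysis was possible because the labels give animal numbers that groups do not share. At these depths, genes under the floor of about 0.5 CPM in both groups could not be compared.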

Other observations

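Of the genes enriched over 4-fold in dopaminergic against serotonergic neurons of wt animals at 4 months, 155 were tested, and of these 3 rose in 5HT mutants at 8 months and 0 fell, with 101 positive estimates and a median log2 fold change of 0.27. Ion channels and receptors for fast transmission held no called gene: 0 of 73 potassium channel genes, 0 of 42 sodium, calcium and HCN channel genes and 0 of 46 receptors for glutamate, GABA and glycine, with medians of 0.25, 0.09 and -0.11. Of 36 receptors for acetylcholine and monoamines 2 fell, Htr1a and Htr5b. In axon guidance 0 of 66 genes were called, 0 of 26 imprinted genes, 0 of 9 genes of H3K27 demethylases and trithorax, and 0 of 37 genes of WNT, BMP and hedgehog ligands. Over all genes tested 0.249% were called higher and 0.147% lower, so 0 calls in these lists lie near the overall share. In the 8 libraries fitted alone, the calcium channel genes Cacng5 and Cacna1g, the axon guidance gene Sema3f and the acetylcholine receptor gene Chrna4 were called higher. The glutamate receptor gene Gria4 and the imprinted gene Peg10 were called lower, as were again Htr1a and Htr5b.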
